A study of Mus musculus with 18 samples.

Results

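The secreted glial matrix and synaptogenic factors described here are 10 genes: Sparc, Sparcl1, Thbs1, Thbs2, Gpc4, Gpc5, Gpc6, Timp3, Fn1 and Serpinf1. They were chosen by symbol, and each matched 1 row of the 54307 genes in the deposited table. Poly(A) RNA was measured in 18 libraries of primary mouse brain cultures, in 6 groups of 3 replicates: sEVs (small extracellular vesicles, membrane particles that cells release) of astrocytes, of microglia and of neurons, and the astrocytes, microglia and neurons themselves. The design asks which mRNAs differ between vesicles and their source cells, and whether this depends on the cell type. The labels name no treatment, strain, sex or age for any group and do not say whether replicates were separate cultures, so p-values measure only the spread between these samples. RNA of sEVs and of cells was extracted with different kits, so an effect of the kit cannot be told apart from that of the sEVs.

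These proteins are released into the space around cells or held on the cell surface. Sparcl1 encodes hevin, which links adhesion proteins across the synaptic cleft and promotes excitatory synapses, and Sparc encodes a related collagen-binding protein that antagonises hevin in mouse astrocyte cultures. Thbs1 and Thbs2 encode thrombospondins, which promote synapse formation in rodents through the calcium channel subunit encoded by Cacna2d1. Gpc4, Gpc5 and Gpc6 encode glypicans, heparan sulfate proteoglycans anchored to the membrane by a lipid, and the first and last of these are known for recruiting AMPA receptors to synapses. Timp3 encodes a metalloproteinase inhibitor that binds to the matrix, Fn1 encodes the matrix protein fibronectin, and Serpinf1 encodes the neurotrophic secreted protein PEDF.

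Library totals of the deposited normalized counts were 36947428 to 69276566, and genes with a value of at least 10 numbered 7840 to 15951 in sEV libraries and 13494 to 18131 in cell libraries. The cell type labels were checked against 10 markers each. Astrocyte markers took 0.949 to 1.86% of the total in astrocyte sEVs and 2.50 to 2.66% in astrocyte cells. Microglia markers took 0.221 to 0.248% in microglia sEVs and 0.506 to 0.565% in microglia cells, and neuron markers took 0.136 to 0.188% in neuron sEVs and 0.544 to 0.635% in neuron cells. Gjb6 was listed at 0 in all astrocyte sEV libraries and Tmem119 in all microglia sEV libraries. All 10 markers were present in each cell type's own cells. The cultures were not free of other cell types: astrocyte markers took 0.313 to 0.352% of neuron cell totals, with all 10 of them present, and oligodendrocyte lineage markers took 0.641 to 1.34% of astrocyte cell totals. The part of such cells in the levels below was not tested, and in bulk samples fewer cells of a type and less RNA per cell cannot be told apart.

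The sequences before the start sites of 3 of the genes are shown because their mRNAs stood far apart in sEVs below: Sparc was present in every library, Gpc4 was listed at 0 in some sEV libraries, and Serpinf1 was listed at 0 in every astrocyte and microglia sEV library. Each is the 250 bases before the start in RefSeq's GRCm38.p6 table, on the strand of the gene, which held an entry for 6 of the 10 genes, and capitals mark the motif matches named below. The windows are Sparc at chr11:55420081-55420330 on the minus strand, Gpc4 at chrX:52164924-52165173 on the minus strand and Serpinf1 at chr11:75422624-75422873 on the minus strand.
Sparc: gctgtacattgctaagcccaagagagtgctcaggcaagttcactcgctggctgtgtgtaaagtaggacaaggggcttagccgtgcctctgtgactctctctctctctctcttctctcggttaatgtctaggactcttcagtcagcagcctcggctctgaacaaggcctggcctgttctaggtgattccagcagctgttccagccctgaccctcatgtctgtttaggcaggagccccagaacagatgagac
Gpc4: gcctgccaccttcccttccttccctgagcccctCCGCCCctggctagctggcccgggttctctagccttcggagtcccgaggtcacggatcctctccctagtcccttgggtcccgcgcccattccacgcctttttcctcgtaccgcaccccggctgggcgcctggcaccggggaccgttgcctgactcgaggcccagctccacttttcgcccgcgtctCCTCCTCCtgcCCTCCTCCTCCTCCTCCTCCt
Serpinf1: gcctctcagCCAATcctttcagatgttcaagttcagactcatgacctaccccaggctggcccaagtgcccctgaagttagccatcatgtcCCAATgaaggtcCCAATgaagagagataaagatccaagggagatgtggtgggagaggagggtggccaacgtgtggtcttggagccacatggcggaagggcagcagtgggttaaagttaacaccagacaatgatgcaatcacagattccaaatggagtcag
The motifs searched on both strands were the TATA box TATAAA, the CCAAT box CCAAT, the GC box GGGCGG, the AP-1 site TGACTCA, the E-box CACGTG and the GGA repeat GGAGGAGG. Sparc held none of these letters in this window, Gpc4 held 1 GC box and 6 matches to the GGA repeat, some of them overlapping, and Serpinf1 held 3 CCAAT boxes. Among 32851 promoter windows of the same length, 33.8% held a CCAAT box, 32.7% a GC box, 12.4% a TATA box, 7.39% a GGA repeat, 6.02% an E-box and 4.46% the AP-1 site. The Gpc4 window was 68.4% G or C and the Sparc and Serpinf1 windows 54.0% and 51.6%, against a median of 52.4% over all windows.

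The mRNAs of these secreted factors had lower mean levels in sEVs than in the cells of the same type, except Sparcl1 in microglia. In a limma fit of log2(normalized count + 1), with a call at a Benjamini-Hochberg adjusted p under 0.05 over all genes tested, 7 of the 10 were called lower in astrocyte sEVs, 8 in microglia sEVs and 5 in neuron sEVs. Over all 19612 genes tested, 18.6% were called lower in astrocyte sEVs, 21.2% in microglia sEVs and 18.9% in neuron sEVs. None of the 10 was called higher by limma in any of the 3 types, where 8%, 5.08% and 11.1% of all genes were, and at an unadjusted p under 0.05 the number called higher was 0 in astrocytes, 1 in microglia and 0 in neurons. The sEV and cell libraries did not overlap for 10 of the 10 genes in astrocytes, 7 in microglia and 9 in neurons, in each case with sEVs below cells. Of all genes tested, 27.2%, 24.9% and 34.2% had every sEV library below every cell library in these types. The median log2 difference over the 10 was -5.69 in astrocytes, -6.93 in microglia and -3.71 in neurons, against -0.60, -0.79 and -0.47 over all genes tested. Quantile normalization put the medians of all genes at 0.15, 0.26 and 0.07, with 2624 genes called higher and 2681 lower in astrocyte sEVs, 2957 and 2402 in microglia sEVs and 3615 and 3439 in neuron sEVs, where 1569 and 3646, 996 and 4151, and 2185 and 3705 were called in the values as deposited. The medians of the 10 were then -4.92, -4.88 and -4.69. Without genes listed at 0 in a whole group, the median was -4.99 over 8 genes in astrocytes and -5.96 over 5 in microglia.

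In total the 10 genes took 0.0273% ± 0.00496 of the library in astrocyte sEVs and 0.574% ± 0.183 in astrocyte cells (n = 3 each), 21.0 times as much in cells. Throughout, ± is the SD after a share or mean level, and limma's SE after a log2 difference. The share was 0.00266% ± 0.00246 in microglia sEVs and 0.0277% ± 0.0197 in microglia cells, and 0.0201% ± 0.00508 in neuron sEVs and 0.289% ± 0.0318 in neuron cells. Every sEV library lay below every cell library of its type. A two-sided exact permutation test gave p = 0.1 in each type, the smallest that 3 against 3 libraries allow, and 0.1 after adjustment over the 3 types. The microglia share difference was -0.0250 percentage points, or -0.0147 without the third microglia cell library. How many of the 10 were listed at 0 also differed: 5, 4 and 3 in the astrocyte sEV libraries, 8, 8 and 5 in the microglia sEV libraries and 0 in each neuron sEV library, against 0 in every astrocyte and neuron cell library and 0, 1 and 1 in the microglia cell libraries. The sEVs of the types had the same order over all genes. Genes at 10 or more numbered 11470, 12848 and 13962 in astrocyte sEVs and 7840, 9865 and 10059 in microglia sEVs. In neuron sEVs they numbered 15157, 15951 and 15771.

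**Figure D1:**
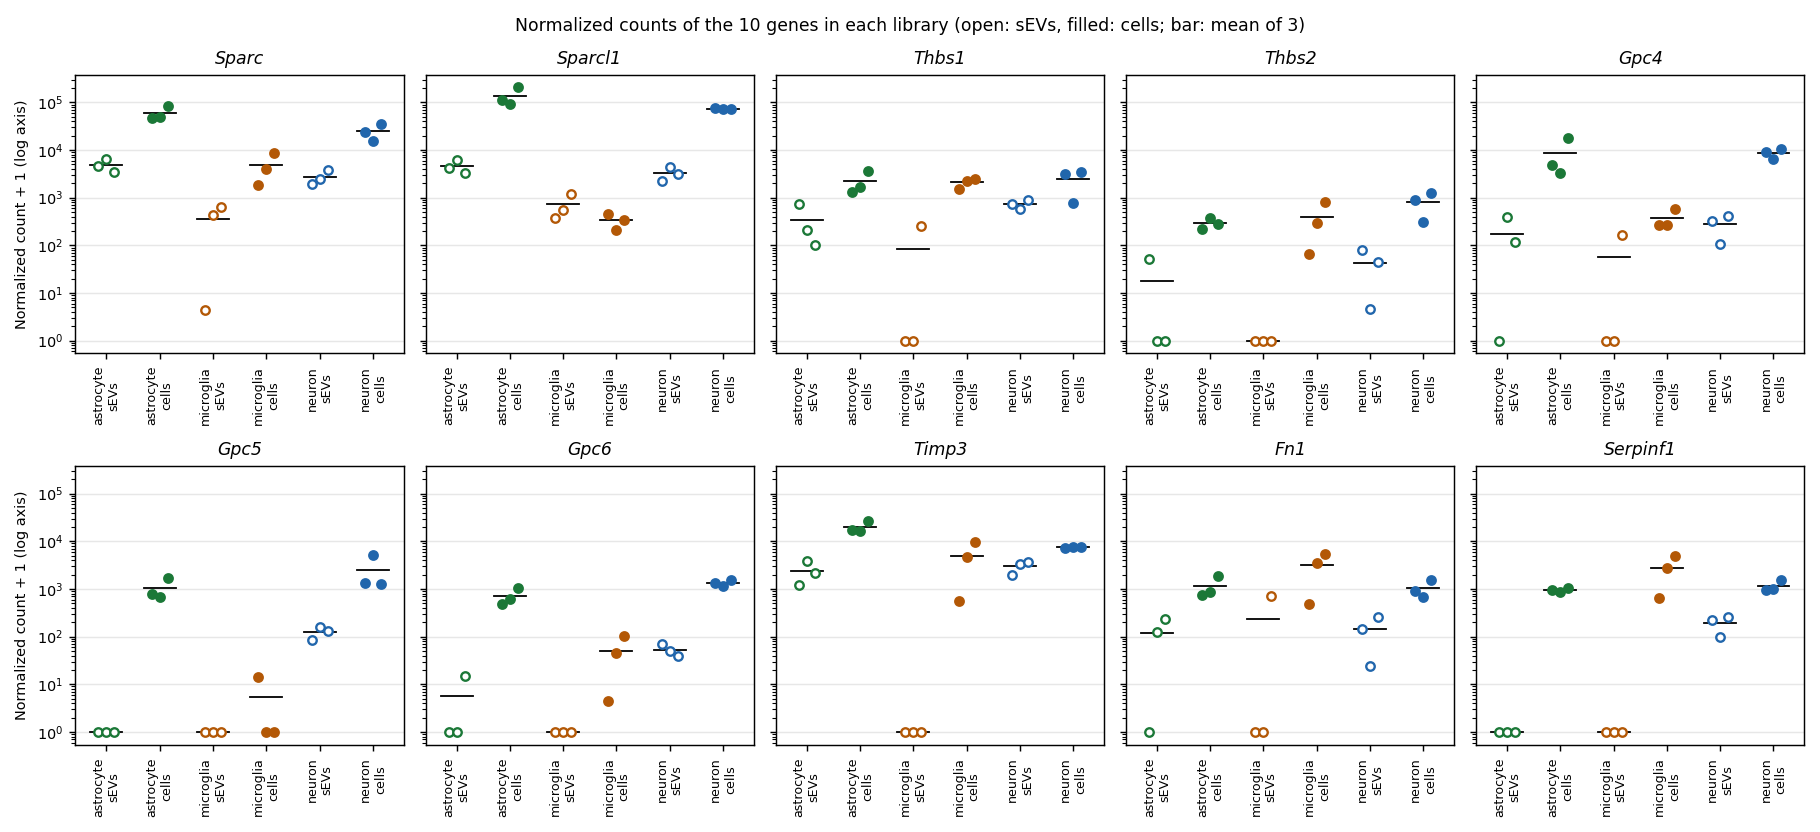
Normalized count + 1 on a log axis for each of the 10 genes, 1 panel a gene, with open points for sEV libraries, filled points for cell libraries and a bar at the mean of 3. The open points lie below the filled points of the same cell type in 26 of the 30 pairs, where 27.2 to 34.2% of all genes do so in astrocytes and neurons and 24.9% in microglia, and points on the lowest line are libraries listed at 0.

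Sparc, the collagen-binding member of the SPARC family, was among the most abundant mRNAs of astrocyte cells. Its normalized counts were 4536, 6356 and 3527 in astrocyte sEVs and 46133, 50200 and 83612 in astrocyte cells. The mean in sEVs was 8.01% of that in cells, and it ranked 1509 of 17446 genes with any value in astrocyte sEVs and 67 of 22190 in astrocyte cells. The libraries did not overlap, but the log2 difference of -3.63 ± 1.29 (SE) missed the threshold in limma (adjusted p = 0.0508, from 2.8e-05 to 0.136 over the alternatives). In the fit of the 6 astrocyte libraries alone Sparc was called lower (limma adjusted p = 0.000775). It was also called lower without any one of the microglia sEV libraries, which share the estimate of the spread and of which the first held 3.48 against 438 and 635 in the other two. Without that library the limma adjusted p was 6.86e-05 in astrocytes.

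In microglia sEVs those Sparc values stood against 1834, 3913 and 8800 in microglia cells. For these sEVs the authors' deposited table gives a group mean of 147, where the replicate columns average 359. Sparc fell by 5.21 ± 1.29 on the log2 scale (limma adjusted p = 0.00775), with no overlap, and this call was lost in the fit of the 6 microglia libraries alone (limma adjusted p = 0.106, with 0.00117 to 0.106 over the alternatives). Neuron sEVs held 1911, 2406 and 3800 and neuron cells 23591, 15605 and 34547, again with no overlap. The neuron difference was -3.17 ± 1.29 on the log2 scale (limma adjusted p = 0.0799). It was called in the fit of the neuron libraries alone (limma adjusted p = 0.000129, with 3.52e-05 to 0.198 over the alternatives) and without the first or the third microglia sEV library (0.000157 and 0.0483). By mean level Sparc was ordered as astrocyte cells, neuron cells, microglia cells, astrocyte sEVs, neuron sEVs and microglia sEVs. Microglia cells and astrocyte sEVs, at 4849 ± 3576 and 4807 ± 1434, lay within each other's spread, and astrocyte and neuron sEVs overlapped.

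Sparcl1, which encodes hevin, had the highest level per kilobase of the 10 in astrocyte and neuron cells and was called lower in their sEVs. Astrocyte sEVs held 4117, 6203 and 3271 and astrocyte cells 112093, 90631 and 207925, so the sEV mean was 3.31% of the cell mean. Neuron sEVs held 2285, 4399 and 3134 and neuron cells 75737, 72247 and 70889, an sEV mean of 4.49% of the cell mean. Every sEV library of these types lay far below every cell library. Sparcl1 fell by 4.88 ± 0.43 on the log2 scale in astrocyte sEVs (limma adjusted p = 1.11e-06) and by 4.53 ± 0.43 in neuron sEVs (limma adjusted p = 1.29e-06), and both calls held in all 27 alternatives.

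In microglia the mean of Sparcl1 was higher in sEVs, and the difference was not called. Microglia sEVs held 379, 559 and 1221 and microglia cells 462, 208 and 344 (the authors' deposited table gives a group mean of 2585 for these sEVs, which was not used), so 2 of the 3 sEV libraries were above all cell libraries and the groups overlapped. The log2 difference of 0.99 ± 0.43 was not called by limma (adjusted p = 0.109, with 0.00618 to 0.404 over the alternatives). It was called higher in sEVs without the first microglia sEV library (limma adjusted p = 0.0347), when libraries were scaled to equal totals (0.0274) and after quantile normalization (0.00618). The sEV effect on Sparcl1 in astrocytes differed from that in microglia by -5.86 ± 0.61 (limma adjusted p = 9.72e-06), and the effect in microglia differed from that in neurons by 5.52 ± 0.61 (limma adjusted p = 1.19e-05). Astrocyte and neuron sEVs overlapped in level, as did microglia sEVs and cells, while astrocyte cells lay above neuron cells in every library. Neuron markers were also higher in some of these microglia sEV libraries: the sum of 10 was 106, 2548 and 2063 in microglia sEVs and 112, 270 and 296 in microglia cells. Of the 10, limma called Snap25 higher in microglia sEVs, by 5.57 ± 1.64 on the log2 scale (adjusted p = 0.0209), and Gad1 and Nefl were at 0 in all 6 libraries. The sum of 10 astrocyte markers was 5257, 5952 and 5182 in microglia sEVs and 15540, 4344 and 6413 in microglia cells. The part of either set in the Sparcl1 levels was not tested.

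Within a library, the ratio of Sparcl1 to Sparc does not depend on the scaling between libraries. It was 0.908, 0.976 and 0.927 in astrocyte sEVs and 2.43, 1.81 and 2.49 in astrocyte cells. In neurons it was 1.20, 1.83 and 0.825 in sEVs and 3.21, 4.63 and 2.05 in cells. Both types had the lower ratios in sEVs, with no overlap. In microglia the ratio was 108.9, 1.28 and 1.92 in sEVs and 0.252, 0.0531 and 0.0391 in cells, so there the sEV ratios were all the higher ones. The first microglia sEV ratio rests on the Sparc value of 3.48. The 2 genes together made up 71.9 to 81.5% of the 10 genes' sum in astrocyte sEVs, 84.4 to 85.6% in astrocyte cells, 53.8 to 60.9% in neuron sEVs and 78.5 to 80.0% in neuron cells. In microglia the order was the other one: they made up the whole sum in the first and second sEV libraries and 62.6% in the third, against 23.1 to 38.9% in microglia cells.

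**Figure D2:**
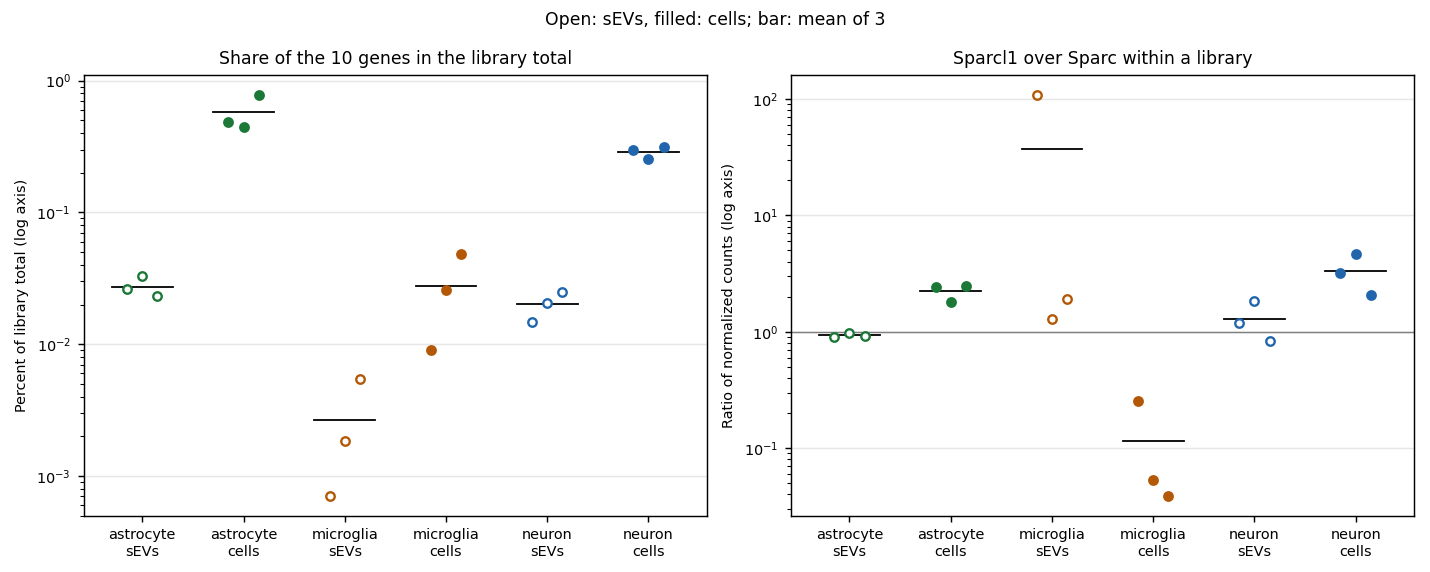
Left, the share of the 10 genes in each library's total (percent, log axis); right, Sparcl1 over Sparc within each library (log axis), with open points for sEVs, filled points for cells and a bar at the mean of 3. The share is lower in every sEV library than in every cell library of its type, and the ratio is lower in astrocyte and neuron sEVs but higher in microglia sEVs.

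The thrombospondin Thbs1 lay within the same spread in the cells of the 3 types and was called lower in microglia sEVs. Astrocyte sEVs held 731, 206 and 98.5 and astrocyte cells 1343, 1645 and 3632. Neuron sEVs held 751, 573 and 877 and neuron cells 3105, 779 and 3432, so the highest neuron sEV library overlapped the lowest cell library. Microglia sEVs were listed at 0 in 2 libraries and held 248 in the third, against 1548, 2209 and 2500 in microglia cells. Thbs1 fell by 8.34 ± 1.56 on the log2 scale in microglia sEVs (limma adjusted p = 0.00101), and with 2 libraries at 0 the size of this value depends on the pseudocount of 1. The astrocyte difference of -3.02 ± 1.56 (limma adjusted p = 0.176) and the neuron difference of -1.49 ± 1.56 (0.538) were not called. They were called in the fits of a type's own 6 libraries (limma adjusted p = 0.0289 in astrocytes and 0.0446 in neurons, with 0.00559 to 0.371 and 0.0446 to 0.747 over the alternatives), and the astrocyte difference also without the third microglia sEV library (0.00559).

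Thbs2, the other thrombospondin, was the scarcer one per kilobase in cells and was low in sEVs. Astrocyte sEVs held 51.2 in 1 library and were listed at 0 in 2, against 218, 376 and 286 in astrocyte cells. Neuron sEVs held 78.8, 3.52 and 42.9, against 876, 309 and 1266 in neuron cells. Microglia sEVs were listed at 0 in all 3 libraries, against 63.4, 291 and 825 in microglia cells. No sEV library reached any cell library of its type. Thbs2 was called lower in all 3 types. It fell by 6.26 ± 1.44 on the log2 scale in astrocyte sEVs (limma adjusted p = 0.00467) and fell by 4.80 ± 1.44 in neuron sEVs (limma adjusted p = 0.0196), and in microglia it is given without a fold (limma adjusted p = 0.000773). The neuron call was lost without the first or the third neuron cell library or the second neuron sEV library (limma adjusted p = 0.0599, 0.0731 and 0.1, with 0.000865 to 0.1 over the alternatives).

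Gpc4, the highest of the 3 glypicans per kilobase, was high in astrocyte and neuron cells and low in all sEVs. Astrocyte sEVs held 0, 389 and 118 and astrocyte cells 4808, 3291 and 17562, so the third cell library was far above the others. Neuron sEVs held 328, 107 and 406 and neuron cells 8934, 6391 and 10723. Microglia sEVs held 0, 0 and 164 and microglia cells 261, 261 and 577. None of these groups overlapped. Gpc4 fell by 7.51 ± 1.99 on the log2 scale in astrocyte sEVs (limma adjusted p = 0.0116), a call lost without the first astrocyte sEV library (0.0513, with 0.00109 to 0.0513 over the alternatives). It fell by 5.96 ± 1.99 in microglia sEVs (limma adjusted p = 0.0391), a call lost in 11 of 27 alternatives, among them those without the first astrocyte cell library, without the first or second microglia sEV library and without any one microglia cell library (0.0507 to 0.134). The authors' deposited table gives a group mean of 290 for Gpc4 in microglia sEVs, where the replicate columns average 54.8 and microglia cells average 366.

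The neuron difference of Gpc4 was -5.12 ± 1.99 on the log2 scale and was not called (limma adjusted p = 0.0664), although the groups were far apart. The fit of the neuron libraries alone called Gpc4 lower (limma adjusted p = 6.67e-05, with 6.67e-05 to 0.177 over the alternatives). It was also called in neurons without the first or second astrocyte sEV library or the third microglia sEV library (0.0182, 0.0487 and 0.0219).

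Gpc5 was present in neuron sEVs and listed at 0 in the other sEVs. All 3 astrocyte sEV libraries were listed at 0, against 786, 665 and 1681 in astrocyte cells (limma adjusted p = 1.71e-06 for lower in sEVs). Neuron sEVs held 84.7, 161 and 128, against 1357, 5076 and 1242 in neuron cells, and Gpc5 fell by 4.07 ± 0.91 on the log2 scale (limma adjusted p = 0.00315). The sEV mean in neurons was 4.88% of the cell mean, and the groups did not overlap. Microglia hardly contained this mRNA, with all sEV libraries at 0 and 12.9, 0 and 0 in cells, and it was not called there (limma adjusted p = 0.356). The sEV effect in astrocytes differed from that in neurons (limma adjusted p = 0.0148), but not without the first or the third neuron cell library (0.0525 and 0.0529, with 0.00157 to 0.212 over the alternatives).

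Gpc6, the lowest glypican per kilobase in astrocyte and neuron cells, was called lower in the sEVs of all 3 types. Astrocyte sEVs held 0, 0 and 14.2 and astrocyte cells 490, 618 and 1062, and Gpc6 fell by 8.11 ± 1.11 on the log2 scale (limma adjusted p = 7.39e-05). Neuron sEVs held 68.5, 47.8 and 38.6 and neuron cells 1350, 1135 and 1560, and Gpc6 fell by 4.71 ± 1.11 (limma adjusted p = 0.00457). Both pairs were far apart, with sEV means of 0.656% and 3.83% of the cell means. Microglia sEVs were listed at 0 throughout, against 3.36, 44.0 and 101 in microglia cells (limma adjusted p = 0.0052), and that call was lost with library weights (0.0751, with 0.000632 to 0.0751 over the alternatives).

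Timp3, the matrix-bound metalloproteinase inhibitor, was the third of the 10 by level per kilobase in astrocyte and neuron sEVs and was listed at 0 in microglia sEVs. Astrocyte sEVs held 1184, 3868 and 2187, against 17250, 16497 and 26750 in astrocyte cells. Neuron sEVs held 1928, 3351 and 3734, against 7355, 7533 and 7511 in neuron cells. Neither pair overlapped. Timp3 fell by 3.19 ± 0.74 on the log2 scale in astrocyte sEVs (limma adjusted p = 0.00521). In neurons the sEV mean was 40.2% of the cell mean, the highest such share among the 10 genes in astrocytes or neurons, and the difference of -1.37 ± 0.74 was not called (limma adjusted p = 0.194). It was called without the first microglia cell library (0.0283) and in the fit of the neuron libraries alone (0.00205, with 0.00205 to 0.422 over the alternatives). All 3 microglia sEV libraries were listed at 0, against 572, 4598 and 9451 in microglia cells (limma adjusted p = 3.51e-08). The authors' deposited table gives a group mean of 901 for Timp3 in microglia sEVs, which the 3 replicate columns do not yield. The sEV effect in microglia differed from that in astrocytes (limma adjusted p = 6.29e-05) and from that in neurons (limma adjusted p = 6.9e-06).

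Fn1, which encodes fibronectin, was called lower in microglia sEVs and was variable in all sEVs. Microglia sEVs held 0, 0 and 695 and microglia cells 490, 3533 and 5506, so the third sEV library overlapped the first cell library. In microglia sEVs Fn1 fell by 7.90 ± 2.29 on the log2 scale (limma adjusted p = 0.0192). That call was lost without the first or second microglia sEV library or the second or the third microglia cell library (0.0634 to 0.076, with 0.000408 to 0.0949 over all alternatives). Astrocyte sEVs held 0, 122 and 234 and astrocyte cells 753, 863 and 1828, and neuron sEVs held 144, 22.9 and 259 and neuron cells 902, 681 and 1554. These pairs did not overlap, but the differences of -5.11 ± 2.29 and -3.35 ± 2.29 were not called (limma adjusted p = 0.118 and 0.313). Fn1 was called lower in astrocyte sEVs without the third microglia sEV library (0.031, with 0.031 to 0.453 over the alternatives) and in neuron sEVs in the fit of the neuron libraries alone (0.0102, with 0.0102 to 0.591).

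Serpinf1, which encodes PEDF, was listed at 0 in all astrocyte and all microglia sEV libraries and was present in all neuron sEV libraries. Astrocyte cells held 962, 860 and 1068, and microglia cells 657, 2751 and 4935. Serpinf1 was called lower in sEVs in astrocytes (limma adjusted p = 9.03e-08) and in microglia (limma adjusted p = 2.07e-08). For microglia sEVs the authors' deposited table gives a group mean of 55.7, which the replicate columns do not yield either. Neuron sEVs held 226, 97.4 and 254, against 948, 989 and 1516 in neuron cells, with no overlap. Serpinf1 fell by 2.66 ± 0.67 on the log2 scale in neuron sEVs (limma adjusted p = 0.00729), to a mean of 16.7% of that in cells. The effect in astrocytes differed from that in neurons (limma adjusted p = 0.000247), as did the effect in microglia (limma adjusted p = 1.65e-05).

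A value of 0 in all sEV libraries was rare among genes with a cell mean of at least 500, a set with no upper limit on the level. With a threshold chosen after the values were seen, 8143 genes had a mean of at least 500 in astrocyte cells, and 25 of them, 0.307%, were listed at 0 in all 3 astrocyte sEV libraries, Gpc5 and Serpinf1 among them. In microglia 69 of 6850 such genes, 1.01%, were at 0 in all sEV libraries. These included Timp3 and Serpinf1, for which the authors' deposited group means are 901 and 55.7. In neurons 14 of 9120 genes, 0.154%, were at 0, and none of the 10 genes was. Since the deposited values are not whole reads, a listed 0 can also be an estimate that failed.

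**Figure D3:**
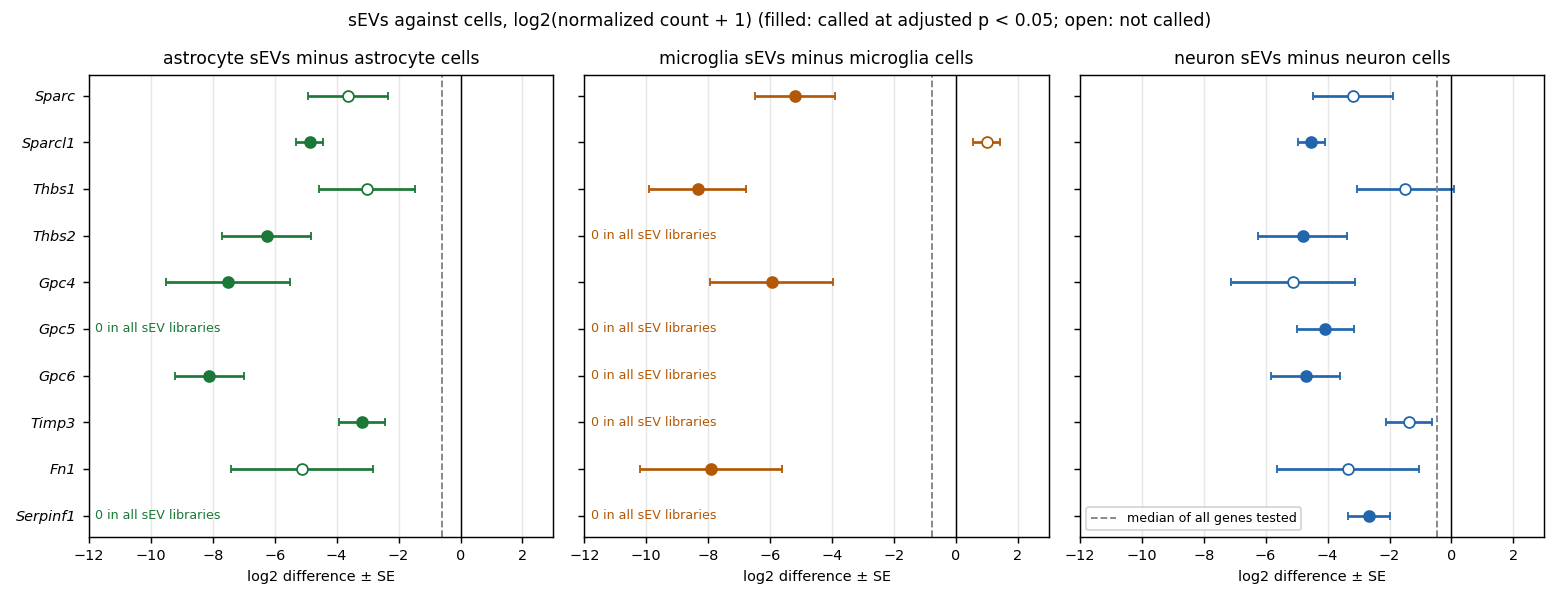
The log2 difference of sEVs minus cells with its SE for each of the 10 genes, 1 panel a cell type, filled where limma called it at an adjusted p under 0.05, with a dashed line at the median of all genes tested. Every plotted point lies left of the dashed line except Sparcl1 in microglia at 0.99, and the 7 gene and type pairs listed at 0 in all sEV libraries carry no point.

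The calls depended on which libraries entered the fit. With the 6 libraries of a type fitted alone, which also changes the genes tested and the degrees of freedom, limma called 9 of the 10 lower in astrocyte sEVs, all but Fn1, 4 in microglia sEVs and all 10 in neuron sEVs. Of all genes in these fits, 19.2% of 15037 were called lower in astrocyte sEVs, 21.6% of 12485 in microglia sEVs and 33% of 17079 in neuron sEVs, where the fit of all libraries gave 18.9% in neurons. In such a fit a gene at 0 in the sEVs passes the filter and is tested through its cells alone. Among the astrocyte calls this holds for Gpc5 and Serpinf1. The 4 microglia calls were Thbs1, Thbs2, Timp3 and Serpinf1. Thbs1 was at 0 in 2 microglia sEV libraries and the others in all, so these calls are given as a description. Without the third microglia sEV library all 10 were called lower in astrocyte sEVs, against 20% of all genes. The differences between cell types in the sEV effect were called for 3 of the 10 genes between astrocytes and microglia, 2 between astrocytes and neurons and 4 between microglia and neurons, where 13.3%, 5.09% and 20.7% of all genes were called in either direction. These were Sparcl1, Gpc5 and Timp3 for the first pair, Gpc5 and Serpinf1 for the second, and Sparcl1, Thbs1, Timp3 and Serpinf1 for the third. The Thbs1 call (difference -6.86 ± 2.20, limma adjusted p = 0.0389) was lost in 16 of 26 alternatives, with adjusted p-values of 1.64e-05 to 0.0937 over them.

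Between cell types, all calls in the fit of the 9 cell libraries set microglia cells below the others, in numbers close to the shares over all genes given below. None was made between astrocyte and neuron cells. Astrocyte cells were higher than microglia cells for 6 of the 10: Sparc by 3.86 ± 0.54 on the log2 scale, Sparcl1 by 8.64 ± 0.35, Gpc4 by 4.26 ± 0.59, Gpc5 by 8.64 ± 1.05, Gpc6 by 4.66 ± 0.99 and Timp3 by 2.75 ± 0.85 (limma adjusted p = 1.77e-07 to 0.0197). Over all 18410 genes tested, 43.6% were called higher in astrocyte cells in that comparison. Microglia cells were lower than neuron cells for 5 of the 10, against 51.8% of all genes. The log2 differences were -2.55 ± 0.54 for Sparc, -7.82 ± 0.35 for Sparcl1, -4.64 ± 0.59 for Gpc4, -9.73 ± 1.05 for Gpc5 and -5.63 ± 0.99 for Gpc6 (limma adjusted p = 2.14e-07 to 0.00255). Thbs1, Thbs2, Fn1 and Serpinf1 were called in neither comparison. Between astrocyte and neuron cells limma called 0 of the 10, against 32.5% of all genes, with 2 at an unadjusted p under 0.05. With a library left out, calls were counted in either direction, so the added calls need not set microglia cells lower. Without the first microglia cell library 8 of the 10 were called between astrocyte and microglia cells. Between microglia and neuron cells 7 were called without the first, as also without the third. The count between astrocyte and neuron cells was 2 without the first microglia cell library and 1 without the third. The Timp3 call between astrocyte and microglia cells was lost without the third astrocyte cell library (limma adjusted p = 0.0612, with 0.00243 to 0.0612 over the alternatives).

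Between the sEVs, neuron sEVs held the most of these mRNAs by number, and also the most genes of any kind. Genes with any value numbered 20662 in neuron, 17446 in astrocyte and 13323 in microglia sEVs. Gpc5, Gpc6, Serpinf1 and Thbs2 met the filter on low values in the sEV fit only with the neuron sEV libraries, so their lower levels in other sEVs are given as a description and not counted. Gpc5 and Serpinf1 were at 0 in all astrocyte and microglia sEV libraries. The log2 difference of Gpc6 between astrocyte and neuron sEVs was -4.37 ± 1.03, and -0.58 after quantile normalization. None of the other 6 genes was called between astrocyte and neuron sEVs, where 11.8% of all 15514 genes tested were called lower and the 6 genes had unadjusted p-values of 0.330 to 0.628. Microglia sEVs were lower than neuron sEVs for 4 of these 6, Sparc, Sparcl1, Thbs1 and Timp3, against 45.3% of all genes. The Sparcl1 and Timp3 calls held in all 17 alternatives. The Sparc call (limma adjusted p = 0.0452, with 0.00245 to 0.113 over the alternatives) was lost without any one astrocyte or neuron sEV library and with no filter. The Thbs1 call (limma adjusted p = 0.0215, with 0.00021 to 0.0805) was lost without any one neuron sEV library, without the first or second microglia sEV library and after quantile normalization. That scaling also turned the differences of Thbs2 and Gpc6 to 1.005 and 0.51, although both were listed at 0 in all microglia sEV libraries. Astrocyte sEVs were higher than microglia sEVs for Sparc by 5.44 ± 1.68 (limma adjusted p = 0.0342), Sparcl1 by 2.78 ± 0.49 (limma adjusted p = 0.00258) and Timp3, 3 of these 6 against 26.6% of all genes. The Sparc difference between astrocyte and microglia sEVs was not called without any one astrocyte sEV library or without the second neuron sEV library (limma adjusted p = 0.0502 to 0.0925, with 0.000742 to 0.0925 over the alternatives).

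Microglia cells varied more between libraries than the other cells for several of these genes, and markers of fibroblasts and meningeal cells varied with them. Timp3 was 572 in the first microglia cell library and 9451 in the third, and the sum of 10 fibroblast and meningeal markers was 239, 8532 and 15328 in the 3 libraries, or 0.000368, 0.0123 and 0.0224% of their totals. Sparc, Fn1, Serpinf1 and Thbs2 had the same order of libraries, while Sparcl1 was highest in the first library. None of the 10 markers was at 0 in all microglia cell libraries. The sum of 10 mural markers was 660, 2406 and 4495 in the same libraries, with Kcnj8, Abcc9, Myh11, Notch3 and Higd1b at 0 throughout, and that of 10 endothelial markers was 1280, 1764 and 1428. In microglia sEVs the fibroblast and meningeal sum was 0, 0 and 258, with Col1a1, Col3a1, Lum, Fbln1, Twist1, Igf2 and Aldh1a2 at 0 in all 3. The same sum was 399, 278 and 210 in astrocyte sEVs and 1702, 2515 and 3748 in astrocyte cells, with Col1a1, Col1a2, Col3a1, Lum, Twist1 and Aldh1a2 at 0 in all 3 astrocyte sEV libraries, and 208, 34.4 and 116 in neuron sEVs and 2391, 1085 and 2898 in neuron cells. Of 9 of these markers that could be tested, limma called 6 lower in astrocyte sEVs, 8 in microglia sEVs and 3 in neuron sEVs. Of all genes, 18.6%, 21.2% and 18.9% were called lower in these types. The part of such cells in the levels, and in the sEV differences measured against them, was not tested.

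**Figure D4:**
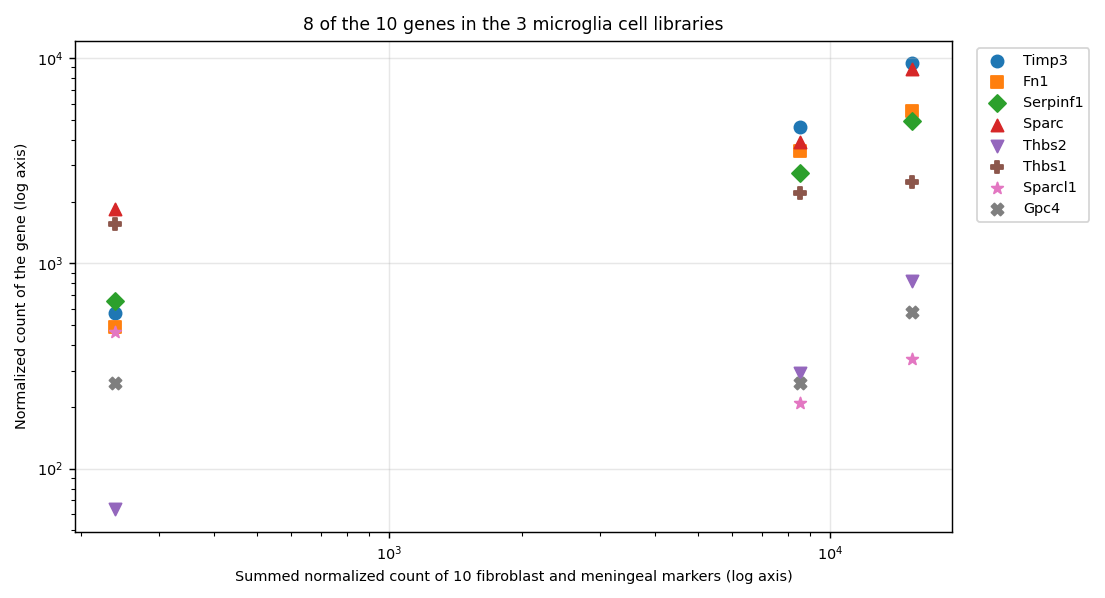
Normalized count of 8 of the 10 genes (log axis) against the summed normalized count of 10 fibroblast and meningeal markers (log axis) in the 3 microglia cell libraries. Timp3 spans 572 to 9451 and Fn1 490 to 5506 as the marker sum spans 239 to 15328, while Sparcl1 is highest at the lowest sum.

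Divided by transcript length, so that genes can be compared with each other, the order of the mean levels was led by Sparc at 2090 ± 623 normalized counts per kilobase and Sparcl1 at 1642 ± 547 in astrocyte sEVs. In astrocyte cells Sparcl1 led with 49613 ± 22636 and Sparc followed with 26079 ± 8942. Neuron sEVs had Sparcl1 at 1186 ± 386 and Sparc at 1176 ± 426, and neuron cells had Sparcl1 at 26444 ± 906 and Sparc at 10687 ± 4135. Timp3 came next in astrocyte sEVs, astrocyte cells and neuron sEVs, at 511 ± 287, 4271 ± 1210 and 636 ± 202 per kilobase, and Gpc4 came next in neuron cells at 3275 ± 821. Microglia cells had another order, led by Sparc at 2108 ± 1555, Serpinf1 at 1518 ± 1168 and Timp3 at 1032 ± 942, all within each other's spread, with Sparcl1 seventh at 122 ± 46.0.

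Other genes of the same families and pathways were called lower or not called in sEVs. Limma called none of the lists' genes higher in any of the 3 types, where 8%, 5.08% and 11.1% of all genes were. The counts called lower below stand against 18.6%, 21.2% and 18.9% of all genes in astrocyte, microglia and neuron sEVs. With libraries scaled to equal totals none was called higher either, and after quantile normalization genes called higher included Spock1, Spock3, Nptxr, Lrrtm4, Chrdl1 and Megf10 in microglia sEVs and Thbs3, Wnt7a, Xylt1 and B3gat3 in neuron sEVs, while no gene called lower changed its sign. At an unadjusted p under 0.05 the genes higher in sEVs were 1 of the SPARC family in microglia and 2 of heparan sulfate synthesis in neurons. Among the other glypicans Gpc1, Gpc2 and Gpc3, 2 of 3 were called lower in astrocyte sEVs, 1 in microglia sEVs and 2 in neuron sEVs. Gpc2 and Gpc3 were listed at 0 in astrocyte sEVs, against means of 215 and 107 in cells, and in microglia sEVs Gpc1 fell by 5.94 ± 0.95 on the log2 scale (limma adjusted p = 0.000269). Of 6 other SPARC family genes 3 were called lower in each type, with log2 differences of -7.16 ± 0.74 for Spock2 in astrocyte sEVs (limma adjusted p = 5.26e-06), -5.70 ± 1.74 for Fstl1 in microglia sEVs (0.025) and -8.00 ± 1.44 for Smoc2 in neuron sEVs (0.000577). Of the other thrombospondins Thbs3 and Thbs4, the 2 of 3 that could be tested, limma called 0 in every type, and 1 in microglia at an unadjusted p under 0.05. Thbs3 averaged 1574 ± 278 in astrocyte sEVs and 759 ± 436 in astrocyte cells, a log2 difference of 1.18 ± 0.76 that was not called (limma adjusted p = 0.291).

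Inhibitor genes were called lower or not called. Of the other TIMPs Timp1, Timp2 and Timp4, 1 of 3 was called lower in astrocyte sEVs, 2 in microglia sEVs and 1 in neuron sEVs. Of all genes, 18.6%, 21.2% and 18.9% were called lower in these sEVs. Timp2 was called in each, with log2 differences of -1.90 ± 0.44 in astrocyte sEVs (limma adjusted p = 0.00484), -1.27 ± 0.44 in microglia sEVs (0.0461) and -1.38 ± 0.44 in neuron sEVs (0.027). Of 5 serpins of matrix and brain, 4, 3 and 3 were called lower. Serpine2, which encodes protease nexin, averaged 5366 ± 788 in astrocyte sEVs and 177378 ± 56963 in astrocyte cells, and fell by 5.01 ± 0.28 on the log2 scale (limma adjusted p = 1.57e-08). The collagen chaperone gene Serpinh1 fell by 5.62 ± 1.39 in the same comparison (limma adjusted p = 0.00754).

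Receptors and modifiers of these factors were likewise called lower or not called. Of 22 receptor genes 12 were called lower in astrocyte sEVs, 12 in microglia sEVs and 7 in neuron sEVs. Itgb1, the integrin beta subunit that binds fibronectin, fell by 2.91 ± 0.23, 3.34 ± 0.23 and 2.74 ± 0.23 on the log2 scale in the astrocyte, microglia and neuron sEVs (limma adjusted p = 3.47e-07, 5.43e-08 and 2.92e-07). Cd47, which encodes a thrombospondin receptor, fell by 4.16 ± 0.29 in neuron sEVs (limma adjusted p = 5.65e-08). Of 14 other astrocyte synapse factors 2, 4 and 3 were called lower, and Apoe, which encodes the main lipid carrier of the brain, averaged 54857 ± 21823 in astrocyte sEVs and 986176 ± 197022 in astrocyte cells (limma adjusted p = 2.93e-07). Of 13 matrix proteases 4, 9 and 5 were called lower, with log2 differences of -4.43 ± 0.67 for Mmp14 in astrocyte sEVs (limma adjusted p = 0.000189) and -5.88 ± 0.60 for Adam9 in microglia sEVs (3.36e-06). Of 16 tested genes of heparan sulfate synthesis and glypican release 4, 9 and 3 were called lower, and Ext2, a subunit of the enzyme that builds the heparan sulfate chain, fell by 4.55 ± 1.01 in astrocyte sEVs (limma adjusted p = 0.00367). These counts stand against 18.6%, 21.2% and 18.9% of all genes called lower in the 3 types. Some lay near those shares, such as 3 of 14 synapse factors and 3 of 16 heparan sulfate genes in neuron sEVs.

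For each of the 10 genes, the gene with the most similar pattern was sought by Pearson's r of log2(normalized count + 1) over the 18 libraries among 15196 genes, as a description, since these points share the contrast of sEVs and cells and the depth of each library. The closest were Elovl5 for Sparc (r = 0.977), Gpm6a for Sparcl1 (0.959), Qpctl for Thbs1 (0.975), Galnt18 for Thbs2 (0.935), Zdhhc24 for Gpc4 (0.968), Lca5l for Gpc5 (0.976), Hyls1 for Gpc6 (0.983), Ccn1 for Timp3 (0.987), Pgm3 for Fn1 (0.951) and Sulf1 for Serpinf1 (0.984). Gpm6a, a membrane glycoprotein gene, averaged 221421 in neuron cells and 113546 in astrocyte cells. It shared the Sparcl1 pattern in microglia, with means of 1459 in microglia sEVs and 337 in microglia cells. Sulf1, which encodes an enzyme that trims heparan sulfate, shared that of Serpinf1, with 0 in astrocyte and microglia sEVs and a mean of 129 in neuron sEVs. Among the 10 genes the most alike pair was Thbs2 and Serpinf1 (r = 0.897) and the least alike Sparcl1 and Fn1 (r = 0.317).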

How the data were processed

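The submitters deposited 1 table of normalized counts, a signal value per gene and library, for all 18 libraries, with a mean per group. The submitters' processing notes name Salmon 1.8.0, DESeq2 and the build GRCm39. Per the labels' protocols, poly(A)-primed cDNA was made with a low-input kit, amplified with 15 PCR cycles and tagmented. The kit does not mark strand, so overlapping genes on opposite strands can share reads. Of the deposited values below 100, 2.9 to 9.04% were whole multiples of a library's commonest value within 0.001. Raw counts were therefore not recovered, no count model was run, and depth is an estimate of 30658292 to 77758624 reads per library. In microglia sEVs the deposited mean equalled the mean of the 3 replicates in 1477 of 18481 genes with any value. Those means were left out.

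Tests ran on log2(normalized count + 1) with R 4.3.3 and limma 3.58.1 (lmFit, eBayes with a trend), for genes that reached 10 in 3 or more libraries entering a fit. One fit of 18 libraries with 6 group means gave sEVs minus cells and the differences of these effects between types, and fits of the 9 cell and the 9 sEV libraries gave the type pairs. Benjamini-Hochberg adjustment ran over all genes of a contrast, with a call under 0.05. A log2 value with single libraries at 0 depends on the pseudocount, and no fold is given for a group listed at 0. The script was first tested on simulated data. Library shares were compared by exact permutation with scipy 1.17.1.

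Named are all 10 members, up to 3 genes a list by smallest p, and the gene most like each member. Genes called higher after quantile normalization, and the level of 500 behind the counts of genes at 0, were chosen after the values were seen. The members and lists were chosen with earlier results of these data known. Transcript lengths came from GENCODE vM21 (GRCm38), promoters from RefSeq's GRCm38.p6, and no coordinates of the table's own build were used. Alternatives were another pseudocount, filter, scaling, library weights, a replicate block, a type's own 6 libraries, and each library left out.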

Additional observations from a re-analysis of the deposited data

Results flagged for a closer look

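The following genes are given here because the sEV effect (sEVs minus cells) differed between 2 cell types by limma's test of the difference, with adjusted p-values over all 19612 genes tested. Sparcl1 had a lower effect in astrocytes than in microglia (adjusted p = 9.72e-06) and a higher one in microglia than in neurons (adjusted p = 1.19e-05), and both held in all 26 alternatives. Gpc5 had a lower effect in astrocytes than in microglia (limma adjusted p = 0.000292), where the sEV libraries of both types were listed at 0 and microglia cells held 12.9, 0 and 0, so the difference is one of the cells. Timp3 had a higher effect in astrocytes than in microglia (limma adjusted p = 6.29e-05) and a lower one in microglia than in neurons (limma adjusted p = 6.9e-06). Both rest on microglia sEV libraries listed at 0, where the authors' deposited group mean is 901.

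Gpc5 also had a lower effect in astrocytes than in neurons (limma adjusted p = 0.0148), a call lost in 5 of 26 alternatives. Serpinf1 had a lower effect in astrocytes than in neurons (limma adjusted p = 0.000247) and in microglia than in neurons (limma adjusted p = 1.65e-05), and both held in all 26 alternatives. Both rest on astrocyte and microglia sEV libraries listed at 0, and the authors' deposited group mean for microglia sEVs is 55.7. Thbs1 had a lower effect in microglia than in neurons (limma adjusted p = 0.0389), a call lost in 16 of 26 alternatives.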

How the results depend on the processing

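Of the 270 alternatives for the 10 genes in astrocytes 254 kept the direction and the side of the threshold, of 268 in microglia 246 and of 270 in neurons 247. Direction turned for Gpc5 in microglia (0.74 on the log2 scale after quantile normalization) and, between microglia and neuron sEVs, for Thbs2 (1.005) and Gpc6 (0.51) under the same scaling. These genes were listed at 0 in all 3 microglia sEV libraries, so the positive differences do not mean higher deposited values there. The cause was not tested. With a type's own 6 libraries 4 of the 10 were called lower in microglia sEVs, against 8. All 4 were at 0 in most or all of the microglia sEV libraries. In neuron sEVs 10 were called lower, against 5, and library weights gave 8. One gene, Sparcl1, was called higher in microglia sEVs, against 0, with equal totals and with quantile normalization. For the sEV effect in astrocytes and neurons, 1 gene, against 2, was called with a pseudocount of 10, with quantile normalization and with the replicate block. Between astrocyte and neuron cells 1, against 0, was called with quantile normalization and with the replicate block. Counts against neuron sEVs under these settings are left out, since Thbs2, Gpc5, Gpc6 and Serpinf1 entered the sEV fit only with neuron sEV libraries.

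Leaving out each library in turn gave 6 to 10 lower in astrocyte sEVs, 6 to 8 in microglia sEVs and 4 to 7 in neuron sEVs, and 0 to 1 higher in microglia sEVs. It gave 3 to 4, 1 to 3 and 3 to 5 genes with a different effect between astrocytes and microglia, astrocytes and neurons, and microglia and neurons. For cells it gave 5 to 8, 0 to 2 and 5 to 7 between the same pairs, and for sEVs 2 to 4, 0 to 3 and 3 to 9. The ranges against neuron sEVs, 0 to 3 and 3 to 9, count Thbs2, Gpc5, Gpc6 and Serpinf1 too. They do not show how stable the levels are. Gpc5 and Serpinf1 were not tested without any one neuron sEV library, as no other sEV library held them. Over all genes, 1823 were called lower in astrocyte than in neuron sEVs, and 314 to 406 without a neuron sEV library. For microglia against neuron sEVs these numbers were 7025 and 5055 to 5144.

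For equal replicate numbers of cells and sEVs, the correlation of their deviations from the group means ran from -0.040 to 0.044. For unequal numbers it ran from -0.057 to 0.055. Values this near 0 do not show whether cells and sEVs of a number shared a culture. With the replicate block 8, 8 and 6 of the 10 were called lower in astrocyte, microglia and neuron sEVs. The block lost the calls of Gpc5 for the effect in astrocytes and neurons (limma adjusted p = 0.0536) and of Thbs1 for that in microglia and neurons (0.0518).

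Scaling moved the split of higher and lower genes. It was 8028 and 3822 between astrocyte and microglia cells, 10598 and 2595 with equal totals and 5898 and 4840 with quantile normalization. Quantile normalization gave 4192 and 3155 between astrocyte and neuron cells (1916 and 4065 as deposited) and 5763 and 6043 between microglia and neuron cells (3666 and 9530). In sEVs it gave 3068 and 2720, 1146 and 1335, and 3536 and 3866 for the same pairs (4131 and 1997, 486 and 1823, and 2106 and 7025). For the effects between types the splits were 1720 and 888, 484 and 515, and 1533 and 2536 as deposited, 1365 and 1478, 545 and 402, and 2307 and 1804 with equal totals, and 1448 and 1331, 592 and 402, and 2654 and 2351 with quantile normalization. Depth is only estimated, so a value of 0 gives no limit on the level.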

Other observations

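The authors' deposited table gives a mean for the microglia sEV group that differed from the mean of its 3 replicate columns for 7 of the 10 genes. For Timp3 the authors' deposited table has 901 and for Serpinf1 55.7, where all 3 replicate columns hold 0. For Sparcl1 the authors' deposited table has 2585, and the 3 replicate columns average 720. For Gpc4 the authors' deposited table has 290, and the replicate columns average 54.8. For Fn1 the authors' deposited table has 1.61, and the replicate columns average 232. In the other 5 groups the deposited mean equalled the mean of the replicates for all 10 genes, within 0.01 plus 0.01%. The reason was not tested, and the values of 0 given for Timp3 and Serpinf1 in microglia sEVs are those of the replicate columns.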
